A study of Chlamydomonas reinhardtii with 12 samples.

Results

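The response to high light was examined in vip1-1, a strain of the unicellular green alga Chlamydomonas reinhardtii that the labels describe as deficient in inositol pyrophosphates. Its 3 libraries from cells in high light, under light of 1500 µmol m-2 s-1, were compared with its 3 libraries from cells in control light, under 50 µmol m-2 s-1. The same 2 light levels in wild type, with 3 libraries each, served to ask where the response differed. All 12 libraries are labelled as separate biological replicates of CC-1690 cells grown in TAP, a medium that contains acetate, at 25 ºC. The values were gene-level FPKM from stranded poly(A) libraries, that is, fragments scaled to transcript length and to the size of the library. Every gene that reached 1 FPKM in 3 or more of the 6 vip1-1 libraries was included, which held for 11051 of the 17693 genes in the table. How long the cells stayed in high light is not given, and vip1-1 was the only mutant strain.

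Inositol pyrophosphates are inositol phosphates that carry a diphosphate group. They are made by kinases of the IP6K and VIP families and act in nutrient and energy signalling in yeast, plants and animals. High light delivers more energy than photosynthesis can use, and algae are known to answer by dissipating excitation, shrinking their light-harvesting antenna, repairing photosystem II and raising antioxidant and chaperone proteins. The identifiers in the table are not paired with gene names, and the reference table used here repeats each locus tag as its symbol. Genes are therefore given by identifier, without a name or a role, and the transcript of the mutated gene was not looked up.

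At the edge of the expression filter, Cre16.g654100_4532.v6.1 was just inside, with 1.00, 1.79 and 2.68 FPKM in high light and 0.73, 0.71 and 0.79 FPKM in control light. Cre10.g438950_4532.v6.1 was just outside, with 0.89, 1.65 and 1.099 FPKM in high light and 1.00, 0.96 and 0.94 FPKM in control light, where the value printed as 1.00 was slightly below 1.

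The high light libraries were less alike than the control libraries. Pearson's r of log2(FPKM + 1) over the tested genes was 0.927 to 0.953 among the 3 high light libraries and 0.977 to 0.989 among the 3 control libraries. The median standard deviation of a gene between replicates was 0.26 in high light and 0.13 in control light on that scale, and it was larger in high light in 79.4% of the genes. High light replicate 1 held 177 genes listed at 0 while both other high light libraries had at least 1 FPKM, against 6 in replicate 2 and 62 in replicate 3, and against 16, 6 and 59 in control replicates 1, 2 and 3. Read depth is unknown, so the precision of a value could be judged only from the replicates. Unless another fit is named, the SEs and limma p-values below use 1 spread per gene, pooled over the 4 groups of all 12 libraries. They do not rest on the vip1-1 libraries alone.

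As deposited, more genes were raised than lowered by high light in vip1-1, and the lowered ones were more often abundant, while after median centring more were lowered than raised. As deposited, 5055 of the 11051 genes (45.7%) passed the threshold, an adjusted p under 0.05 by limma with Benjamini-Hochberg adjustment. Of these 4535 (41.0%) were higher and 520 (4.71%) lower in high light. Changes of at least 2-fold were found in 952 raised and 267 lowered genes, of at least 4-fold in 75 and 47, and of at least 8-fold in 21 and 9. The median change was 0.70 on the log2(FPKM + 1) scale among the raised genes, -1.01 among the lowered genes and 0.40 among all tested genes, so the typical gene itself stood higher in high light.

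The balance of higher and lower genes depended on the scaling. Centring each library on the median of its tested genes moved every change by -0.43. It left 2248 called genes (20.3% of those tested), 896 raised (8.11%) and 1352 lowered (12.2%), so that 39.9% of the called genes were higher, against 89.7% as deposited. Under quantile normalization the counts were 1188 raised and 957 lowered. Scaling every library to the same FPKM total moved the balance the other way, to 5511 raised and 380 lowered genes, 93.5% higher. The 896 genes raised after centring were among the 4535 raised as deposited, and all 520 genes lowered as deposited were lowered after centring. Since every change moved by the same -0.43, this nesting was largely fixed in advance and adds no independent agreement between the scalings. The raised set is in effect the centred call, and the lowered set is the call as deposited. Their cutoffs therefore differed: changes as deposited started at 0.75 among the raised genes and at -0.25 among the lowered genes. These 896 raised and 520 lowered genes, called under both scalings, are described below unless another set is named. A further 3639 genes were raised as deposited only, and 832 were lowered after centring only.

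The counts also rested on single libraries. Without control replicate 2, so that 2 control libraries remained, 2909 genes were raised and 199 lowered as deposited, 3108 in all. The lowered genes numbered 234 without control replicate 1, 246 without high light replicate 3 and 811 without high light replicate 2. After centring, 315 genes were raised and 412 lowered without control replicate 2, 350 and 481 without control replicate 1, and 440 and 557 without high light replicate 3. Without control replicate 3 the centred count of raised genes was 587.

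**Figure D1:**
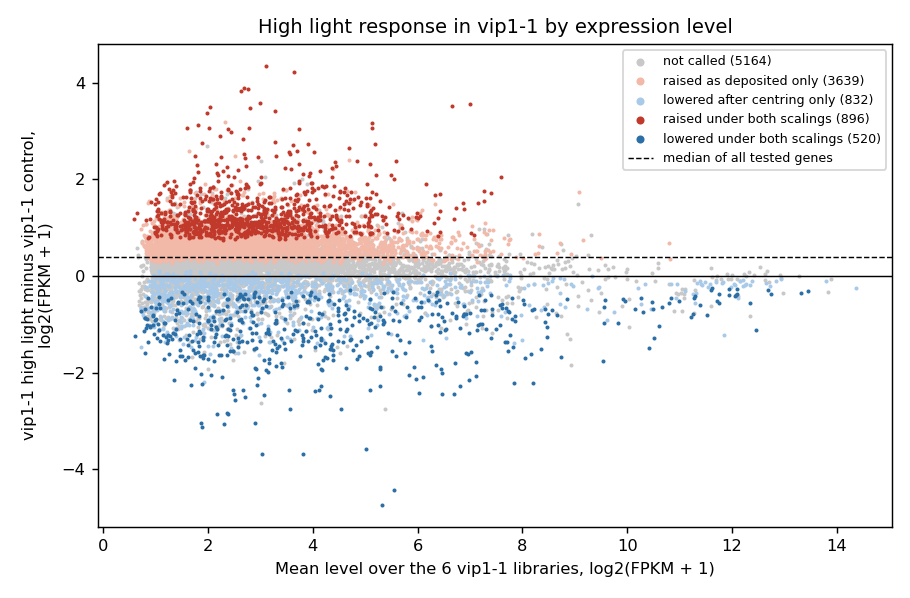
Change in high light, as vip1-1 high light minus vip1-1 control on the log2(FPKM + 1) scale, against the mean level over the 6 vip1-1 libraries on the same scale, 1 point for each of 11051 tested genes. Colours mark the 896 genes raised and the 520 lowered under both scalings, and those called under 1 scaling only. The dashed line is the median change of all tested genes, 0.40, and the most abundant genes lie mostly below it.

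The share of lowered genes was highest among the most abundant transcripts, although most of these were not called as deposited. Genes were grouped by their mean FPKM over the 6 vip1-1 libraries. Of the 170 genes with a mean of 500 FPKM or more, 5 were raised (2.94%) and 43 lowered (25.3%) as deposited, with a median log2 change of -0.24. Among the 380 genes between 100 and 500 FPKM, 67 were raised and 76 lowered. In the 2159 genes between 5 and 10 FPKM, 996 (46.1%) were raised and 79 (3.66%) lowered, with a median of 0.46. After centring the same gradient remained for lowered genes, from 9.73% between 5 and 10 FPKM to 52.9% at 500 FPKM or more, where no gene was raised. Since FPKM are shares of a library's fragments, a fall of the most abundant transcripts and a rise of all others cannot be told apart from these values.

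The 100 most abundant genes held 64.5%, 60.4% and 60.2% of the FPKM total in high light replicates 1, 2 and 3, against 66.3%, 64.7% and 67.3% in control replicates 1, 2 and 3. The groups did not overlap, with means of 61.7% ± 2.41 in high light and 66.1% ± 1.34 in control light (SD, n = 3 each). The exact two-sided permutation p was 0.1, the smallest that 3 libraries against 3 can give. Within these 100 genes 24 were lowered, 1 was raised and 75 did not pass the threshold as deposited. After centring 59 were lowered and none was raised.

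The 520 lowered genes together made up 17.2%, 19.2% and 16.2% of the FPKM total in high light replicates 1, 2 and 3, and 24.2%, 24.9% and 23.2% in control replicates 1, 2 and 3. The 896 raised genes made up 2.06%, 2.75% and 3.46% in high light and 0.83%, 0.81% and 0.87% in control light. The lowered genes thus carried more of the transcript pool than the raised genes in all 6 libraries. These shares describe genes that the same comparison chose, under cutoffs that differed between the raised and the lowered genes.

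**Figure D2:**
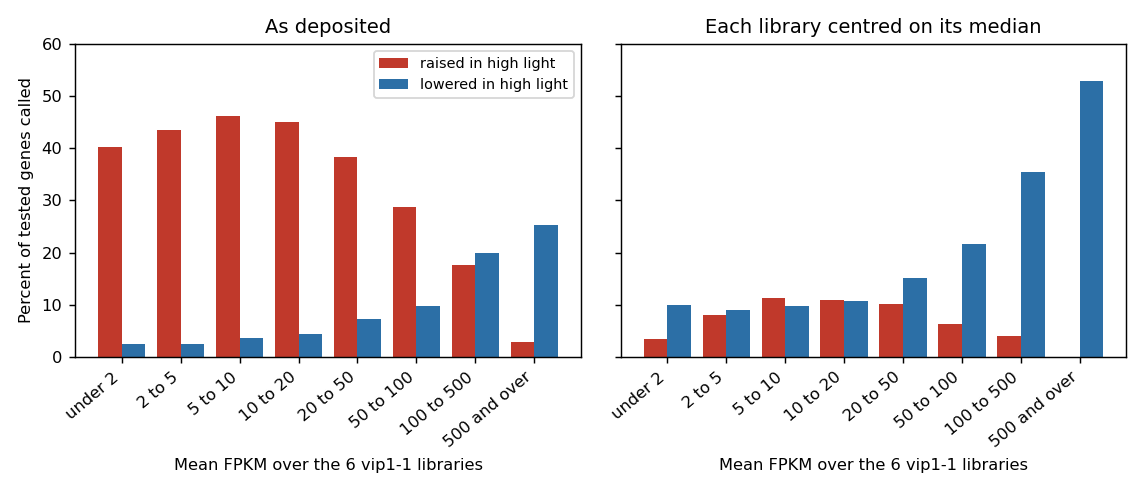
Percent of tested genes raised (red) and lowered (blue) in vip1-1 high light, by class of mean FPKM over the 6 vip1-1 libraries, as deposited (left) and with each library centred on its median (right). In both panels the share of lowered genes is highest in the class of 500 FPKM and over, 25.3% and 52.9%.

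The genes of largest change were taken among those called under both scalings whose high light and control values did not overlap, that had no value of 0 and that averaged at least 10 FPKM in a group. This held for 454 raised and 262 lowered genes, and the 10 of largest change each way are named. Across all tested genes the values of the 2 groups did not overlap in 56.8% as deposited, with high light above control in 50.7% and below it in 6.14%. After centring high light lay above control in 17.1% and below it in 21.9%. The 10 raised genes had log2 changes of 3.48 to 4.35 and the 10 lowered genes of -2.43 to -4.44. Adding 1 to each FPKM understates the change of genes with control or high light values near or below 1.

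A pair of neighbouring loci were the most abundant of the 10 raised genes. Cre08.g367400_4532.v6.1 stood at 317, 500 and 539 FPKM in replicates 1, 2 and 3 of high light and at 38.5, 30.8 and 40.2 FPKM in control replicates 1, 2 and 3. The log2 difference between the light levels was 3.57 (SE 0.23, limma adjusted p 6.19e-05). Cre08.g367500_4532.v6.1, the next locus in the order of the v5.5 assembly, had 331, 330 and 360 FPKM in high light and 30.3, 26.1 and 29.8 FPKM in control light. Here the log2 difference was 3.52 (SE 0.28, limma adjusted p 0.000117). Both were far above their control values in every high light library. Whether the 2 loci are near-identical copies between which reads could be split was not tested.

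The gene of largest rise was also among the most variable. Cre05.g235950_4532.v6.1 was at 4.73, 69.4 and 144 FPKM in replicates 1, 2 and 3 of high light, against 0.87, 0.90 and 0.94 FPKM in control light. Its log2 change was 4.35 with an SE of 1.03 (limma adjusted p 0.00786). The control libraries were nearly equal, while high light replicate 1 stood far below the other two. With replicate 2 of both groups left out the adjusted p came to 0.0639, above the threshold.

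The same order of the high light libraries was seen in other raised genes. Cre11.g482650_4532.v6.1 had 7.07, 33.3 and 61.4 FPKM in replicates 1, 2 and 3 of high light and 0.75, 0.75 and 0.81 FPKM in control light (log2 change 3.87, SE 0.63, limma adjusted p 0.00170). Cre14.g610250_4532.v6.1 had 5.76, 46.1 and 63.6 FPKM in high light and 1.36, 1.204 and 1.32 FPKM in control light (log2 change 3.58, SE 0.65, limma adjusted p 0.00256). In 7 of the 10 genes replicate 1 was the lowest high light library, and in 8 of them replicate 3 was the highest.

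Cre07.g325742_4532.v6.1 and Cre03.g194900_4532.v6.1 ran the other way, with replicate 1 highest. The first had 66.1, 53.2 and 42.5 FPKM in high light and 2.21, 1.44 and 2.07 FPKM in control light (log2 change 4.23, SE 0.47, limma adjusted p 0.000391). The second had 37.7, 11.9 and 24.5 FPKM in high light and 1.41, 0.72 and 1.22 FPKM in control light (log2 change 3.48, SE 0.56, limma adjusted p 0.00153). In Cre08.g367500_4532.v6.1 the 3 high light values were nearly equal. The raised genes not yet named were Cre10.g439950_4532.v6.1, Cre07.g321750_4532.v6.1 and Cre09.g404201_4532.v6.1, with log2 changes of 3.89, 3.82 and 3.50. Cre09.g404201_4532.v6.1 had 1.78, 26.6 and 33.5 FPKM in high light and 0.26, 0.25 and 0.16 FPKM in control light, and with replicate 2 of both groups left out its adjusted p was 0.0703, above the threshold.

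Among the lowered genes, Cre24.g755997_4532.v6.1 had the largest change of the 10. It stood at 31.6, 5.88 and 3.58 FPKM in replicates 1, 2 and 3 of high light, and at 246, 199 and 212 FPKM in control replicates 1, 2 and 3. The log2 change was -4.44 (SE 0.59, limma adjusted p 0.000765). High light replicate 1 kept the highest level.

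Cre16.g661750_4532.v6.1 was the most even of the lowered genes. It had 0.22, 0.33 and 0.21 FPKM in high light, against 8.78, 10.9 and 10.4 FPKM in control light (log2 change -3.13, SE 0.22, limma adjusted p 7.27e-05). All 3 high light values lay below 1 FPKM, so the change on the log2(FPKM + 1) scale is smaller than the ratio of the levels.

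Cre12.g546550_4532.v6.1 and Cre12.g546600_4532.v6.1 are neighbours in the v5.5 order and were both lowered. Cre12.g546550_4532.v6.1 had 27.5, 4.73 and 4.01 FPKM in high light and 52.2, 124 and 214 FPKM in control light (log2 change -3.59, SE 0.69, limma adjusted p 0.00311). Cre12.g546600_4532.v6.1 had 139, 33.1 and 17.2 FPKM in high light and 204, 296 and 228 FPKM in control light (log2 change -2.44, SE 0.61, limma adjusted p 0.00979). In both genes high light replicate 1 was nearest to the control values. The adjusted p of Cre12.g546600_4532.v6.1 was 0.0845 with replicate 2 of both groups left out.

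In 7 of the 10 lowered genes it was high light replicate 2 that kept the highest level. Cre03.g195650_4532.v6.1 had 2.65, 10.4 and 1.28 FPKM in replicates 1, 2 and 3 of high light and 36.7, 42.3 and 17.1 FPKM in control replicates 1, 2 and 3 (log2 change -2.76, SE 0.55, limma adjusted p 0.00363). Cre04.g217932_4532.v6.1 had 3.45, 23.7 and 4.53 FPKM in high light and 52.6, 64.6 and 29.8 FPKM in control light (log2 change -2.49, SE 0.56, limma adjusted p 0.00618). In both, control replicate 3 was the lowest control library, as in 6 of the 10 lowered genes. The remaining lowered genes were Cre10.g440450_4532.v6.1, Cre09.g398250_4532.v6.1, Cre09.g387875_4532.v6.1 and Cre05.g243800_4532.v6.1, with log2 changes of -3.04, -2.85, -2.76 and -2.43.

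**Figure D3:**
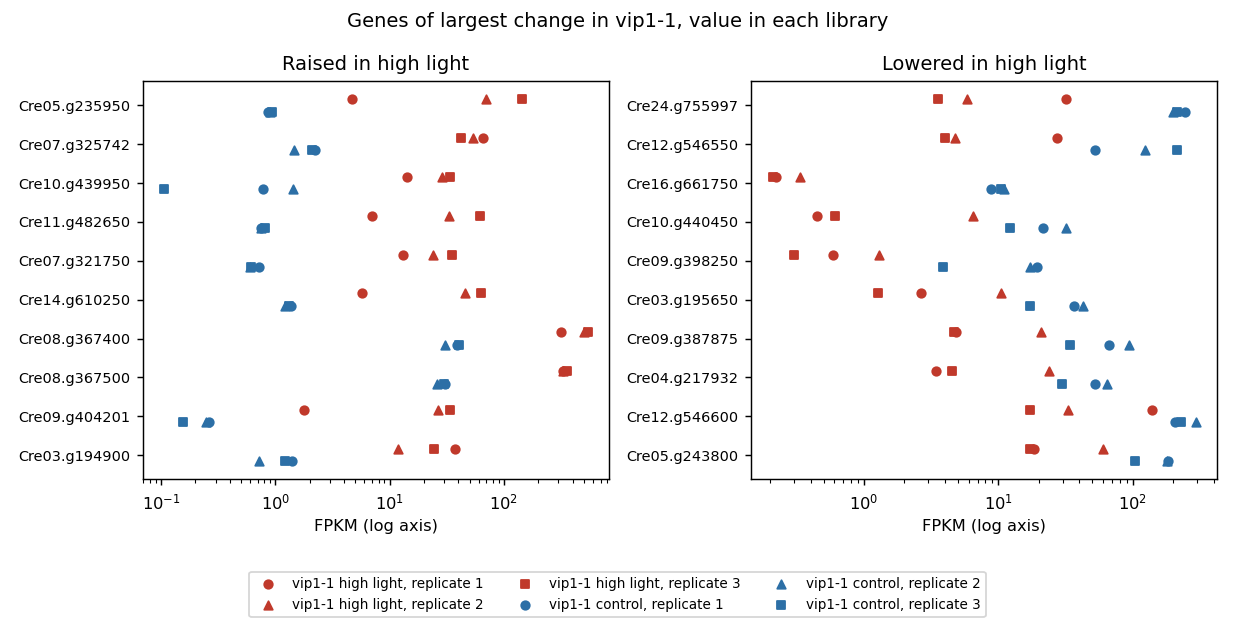
FPKM (log axis) of the 10 genes of largest rise (left) and the 10 of largest fall (right) in each vip1-1 library, high light in red above control in blue, with a symbol for each replicate. Identifiers are shown without their shared suffix. The high light values spread more widely than the control values for most raised genes, and the triangles of high light replicate 2 are nearest to the control values for 7 of the lowered genes.

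The uneven high light libraries showed across the whole response, read here as deposited, so that differences between whole libraries enter the values. Among the 896 raised genes the nearest high light value to control came from replicate 1 in 72.9%, from replicate 2 in 19.9% and from replicate 3 in 7.25%. Among the 520 lowered genes it came from replicate 1 in 19.0%, from replicate 2 in 75.4% and from replicate 3 in 5.58%. The median change of the raised genes from the control mean was 0.92, 1.16 and 1.43 in replicates 1, 2 and 3, and that of the lowered genes was -1.21, -0.46 and -1.24. By these medians replicate 1 was nearest to control for the raised genes and replicate 2 for the lowered genes, while replicate 3 was farthest for both. Among the control libraries, replicate 3 was nearest to high light in 54.7% of the raised and 70.0% of the lowered genes.

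Since the vip1-1 values chose those genes, the libraries were also read through genes called in wild type, after median centring. These were taken from the 11051 genes that passed the filter on the vip1-1 columns, and the fit that called them drew its spread from all 12 libraries, so their choice was not free of the vip1-1 values. The 918 genes raised at least 2-fold in wild type stood 0.48, 0.48 and 0.84 above the vip1-1 control mean in vip1-1 high light replicates 1, 2 and 3, as medians on the centred log2 scale. The 1579 genes lowered at least 2-fold in wild type stood at -0.85, -0.57 and -1.17 in the same libraries. The control libraries lay between -0.06 and 0.08 for the raised and between -0.13 and 0.13 for the lowered genes. All 3 vip1-1 high light libraries therefore moved in the wild-type direction, replicate 2 least for the lowered genes and replicate 3 most for both sets. For the raised genes replicates 1 and 2 were alike on this centred scale.

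Larger wild-type responses were read in the same way. For the 119 genes lowered at least 8-fold in wild type the medians were -2.17, -1.28 and -2.45 in vip1-1 high light replicates 1, 2 and 3. In vip1-1 control replicates 1, 2 and 3 they were 0.09, 0.27 and -0.33. The median of these genes in wild type was -3.59, and since they were chosen as extreme there, a smaller change in vip1-1 is in part fixed by the choice. For the 33 genes raised at least 8-fold in wild type the medians were 1.06, 1.35 and 2.07 in vip1-1 high light and -0.03, 0.00 and 0.02 in vip1-1 control light.

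**Figure D4:**
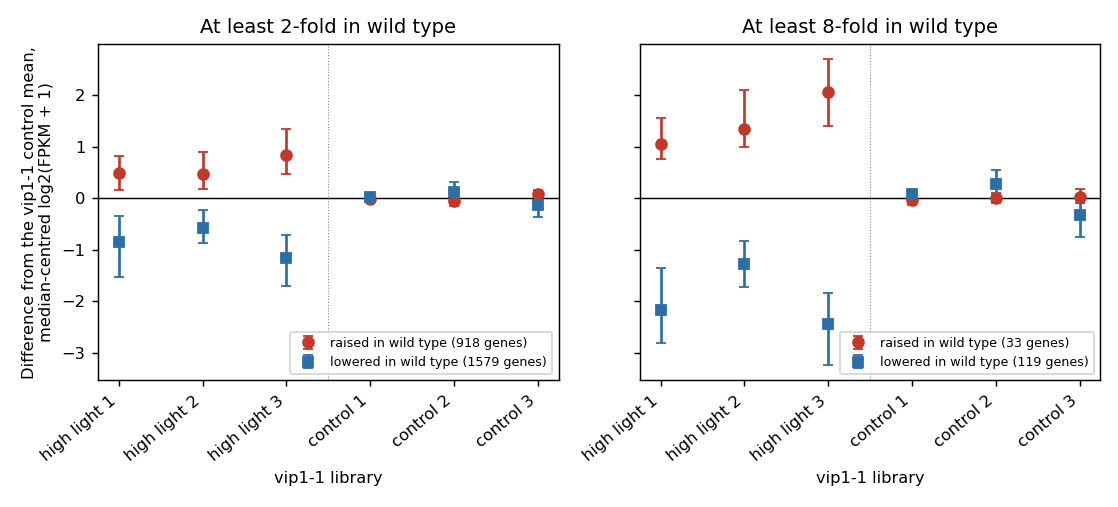
Median difference from the vip1-1 control mean, on the median-centred log2(FPKM + 1) scale, in each vip1-1 library for genes raised (red) and lowered (blue) at least 2-fold (left) or at least 8-fold (right) in wild type. Bars span the 25th to 75th percentile over genes. High light replicate 2 shows the smallest fall in both panels, and control replicate 3 lies below the other control libraries for the lowered genes.

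Most genes that responded in vip1-1 responded in the same direction in wild type. Of the 896 raised genes, 708 (79.0%) were also called raised in wild type under both scalings, and of the 520 lowered genes 379 (72.9%) were called lowered. These were 27.2% of the 2601 raised and 24.9% of the 1523 lowered genes of wild type, which were 23.5% and 13.8% of all genes tested. As deposited, wild type had 6605 called genes (59.8%), 5082 of them raised (46%), and after centring 5661 (51.2%). Only 4 raised and 7 lowered genes of vip1-1 were called in the opposite direction in wild type under both scalings. The 2 contrasts share no library, but their calls came from a fit with a common spread per gene.

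Whether a light response differed between the strains was tested by the interaction, in which the wild-type light effect was subtracted from that of vip1-1. It passed the threshold in 969 of the 11051 genes (8.77%, limma adjusted p under 0.05), 424 of them positive (3.84%) and 545 negative (4.93%). After centring it was called in 988 genes (8.94%), 416 positive (3.76%) and 572 negative (5.18%). Among the 896 genes raised in vip1-1 it was called in 102 (11.4%), 29 positive and 73 negative, and among the 520 lowered genes in 65 (12.5%), 40 positive and 25 negative. The vip1-1 values enter both tests, so these shares are a description. The total was 466 to 515 without wild-type control replicate 1, 2 or 3, wild-type high light replicate 1 or vip1-1 control replicates 1 or 3 (477 and 497), 573 and 630 without vip1-1 control replicate 2 and vip1-1 high light replicate 2, and 1735 without wild-type high light replicate 2.

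**Figure D5:**
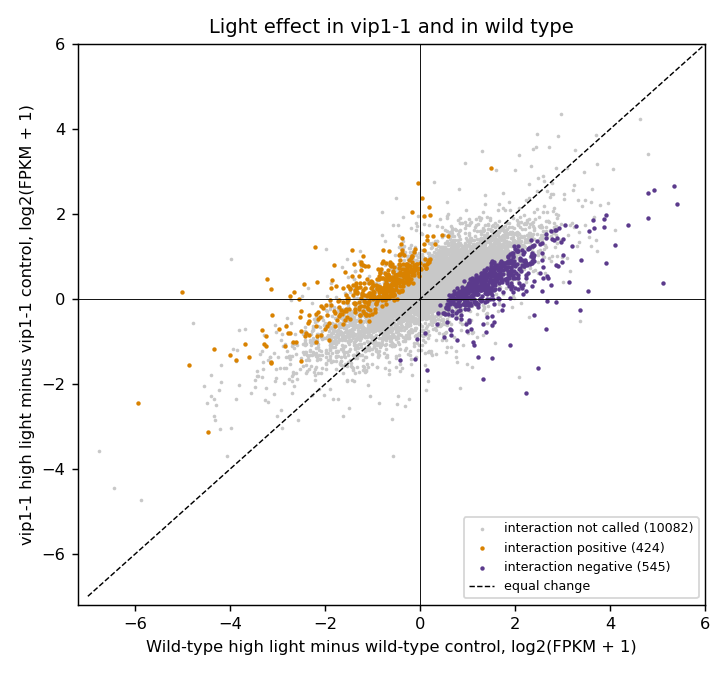
Light effect in vip1-1 (vertical axis) against that in wild type (horizontal axis), both as high light minus control on the log2(FPKM + 1) scale, 1 point for each of 11051 tested genes. Orange marks the 424 genes with a positive interaction and purple the 545 with a negative one, which lie above and below the dashed line of equal change.

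Of the 6 named genes with a positive interaction, 3 rose in vip1-1 as deposited while they fell or did not pass the threshold in wild type. Cre12.g492650_4532.v6.1 had 67.2, 127 and 92.2 FPKM in vip1-1 high light and 12.5, 15.3 and 11.7 FPKM in vip1-1 control light. In wild type it had 11.8, 8.75 and 22.4 FPKM in high light and 12.7, 11.2 and 18.4 FPKM in control light. The interaction was 2.78 (SE 0.46, limma adjusted p 0.00748). The light levels overlapped in wild type, while no overlap in vip1-1 was a condition for naming the gene.

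Cre02.g088551_4532.v6.1 went in opposite directions. It had 11.8, 12.1 and 10.4 FPKM in vip1-1 high light against 4.802, 4.02 and 4.12 FPKM in vip1-1 control light, so that the log2 difference was 1.23 (SE 0.14, limma adjusted p 0.000460). In wild type it had 0.66, 0.32 and 0.89 FPKM in high light and 6.48, 6.79 and 6.28 FPKM in control light. The interaction was 3.45 (SE 0.20, limma adjusted p 2.29e-05), and it passed the threshold under all 28 alternatives. Cre04.g223300_4532.v6.1 likewise had 86.7, 104 and 72.8 FPKM in vip1-1 high light and 41.4, 37.6 and 37.8 FPKM in vip1-1 control light, against 34.1, 44.2 and 19.96 FPKM in wild-type high light and 78.7, 91.5 and 87.4 FPKM in wild-type control light. Its interaction was 2.57 (SE 0.34, limma adjusted p 0.00313), while its rise in vip1-1 did not pass the threshold after centring (limma adjusted p 0.1002).

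Other named genes with a positive interaction fell in both strains. Cre13.g570851_4532.v6.1 stood at 74.7, 165 and 149 FPKM in vip1-1 high light and 397, 372 and 326 FPKM in vip1-1 control light, against 21.6, 40.9 and 17.8 FPKM in wild-type high light and 776, 633 and 888 FPKM in wild-type control light (interaction 3.30, SE 0.47, limma adjusted p 0.00398). Cre08.g365900_4532.v6.1 had 2.11, 6.42 and 7.21 FPKM in vip1-1 high light and 9.91, 13.5 and 12.9 FPKM in vip1-1 control light (log2 change -1.18, SE 0.31, limma adjusted p 0.0131). In wild type it stood at 0.76, 1.03 and 0.39 FPKM in high light and 35.7, 33.7 and 31.5 FPKM in control light (interaction 3.16, SE 0.44, limma adjusted p 0.00376). Both kept more of their control level in vip1-1 than in wild type. In a fit of the 6 vip1-1 libraries alone, the fall of Cre08.g365900_4532.v6.1 had an adjusted p of 0.0517 and did not pass the threshold.

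Of the 6 named genes with a negative interaction, 3 fell in vip1-1 and rose in wild type. Cre06.g282800_4532.v6.1 had 168, 200 and 127 FPKM in vip1-1 high light and 530, 547 and 439 FPKM in vip1-1 control light, against 112, 332 and 51.5 FPKM in wild-type high light and 19.7, 18.8 and 27.4 FPKM in wild-type control light. Its interaction was -4.09 (SE 0.72, limma adjusted p 0.00924). Its fall in vip1-1, a log2 change of -1.63 (limma adjusted p 0.0253), did not pass the threshold without vip1-1 control replicate 1 (adjusted p 0.0678), without vip1-1 control replicate 2 (0.0749) or without vip1-1 high light replicate 3 (0.0800). Over all 29 alternatives its adjusted p reached 0.0927.

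Cre01.g032650_4532.v6.1 had 31.8, 47.6 and 19.0 FPKM in vip1-1 high light and 127, 140 and 87.4 FPKM in vip1-1 control light, against 88.1, 121 and 105 FPKM in wild-type high light and 31.5, 41.2 and 52.5 FPKM in wild-type control light (interaction -3.20, SE 0.44, limma adjusted p 0.00353). The largest negative interaction, -4.45, was that of Cre17.g802031_4532.v6.1, with 128, 132 and 144 FPKM in vip1-1 high light and 625, 555 and 724 FPKM in vip1-1 control light. In wild type it had 27.3, 89.3 and 24.0 FPKM in high light and 7.07, 4.74 and 12.3 FPKM in control light. In all 3 genes the vip1-1 control values lay above the wild-type control values.

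The other 3 of these 6 rose in both strains, with a smaller log2 change in vip1-1. Cre02.g093750_4532.v6.1 had 46.5, 61.0 and 86.8 FPKM in vip1-1 high light and 14.4, 17.4 and 16.4 FPKM in vip1-1 control light, against 318, 302 and 267 FPKM in wild-type high light and 10.8, 10.5 and 7.80 FPKM in wild-type control light (interaction -2.90, SE 0.29, limma adjusted p 0.000938). The log2 changes in vip1-1 were 1.90 for this gene, 2.65 for Cre05.g234661_4532.v6.1 and 2.23 for Cre01.g053000_4532.v6.1. Cre05.g234661_4532.v6.1 averaged 66.2 FPKM in high light and 9.45 FPKM in control light in vip1-1, against 406 and 8.95 FPKM in wild type. Cre01.g053000_4532.v6.1 averaged 45.1 and 8.70 FPKM in vip1-1, against 127 and 1.37 FPKM in wild type, so its control level was higher in vip1-1. The interaction of Cre01.g053000_4532.v6.1 (limma adjusted p 0.0227) did not pass the threshold when any 1 control library of either strain or wild-type high light replicate 1 was left out, with adjusted p of 0.0507 to 0.0619. The light levels of these genes did not overlap in wild type either, while in vip1-1 this was a condition for naming them.

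Position and gene structure were read from the v5.5 locus tags, which matched 10283 of the tested genes (93.1%). The annotated span of a gene, introns included, had a median of 4542 bases for the raised, 2968 bases for the lowered and 4426 bases for the other tested genes. The lowered genes were thus the shorter ones, with quartiles of 2063 and 4280 bases against 3080 and 6445 bases for the other genes, and they were also more abundant, with a median FPKM of 15.7 against 5.07. Level and span were not separated.

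Response was spread over all of chromosomes 1 to 17. Identifiers with a higher number, such as Cre24.g755997_4532.v6.1, were left out here. The share of raised genes ranged from 4.51% on chromosome 15 to 11.8% on chromosome 11. That of lowered genes ranged from 2.26% on chromosome 15 to 5.82% on chromosome 2. Chromosome 15 had only 133 tested genes, 6 of them raised and 3 lowered. The log2 changes of 6653 pairs of adjacent tested genes had a Pearson's r of 0.04 across genes, against -0.01 to 0.03 for pairs 2, 5, 10 or 50 places apart. Of the neighbours of raised genes 12.3% were raised, against 6.68% to 9.4% at those distances and 8.11% of all tested genes, and of the neighbours of lowered genes 7.93% were lowered, against 4.81% to 6.39% and 4.71% of all tested genes. Genes are not independent replicates, and these values are a description.

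Adjacent genes of large change did not always move together. Next to the raised Cre10.g439950_4532.v6.1, Cre10.g439900_4532.v6.1 fell with a log2 change of -3.69 (limma adjusted p 0.00113), and next to the raised Cre03.g194900_4532.v6.1, Cre03.g194850_4532.v6.1 fell with -2.28 (limma adjusted p 0.0108). Next to the raised Cre07.g321750_4532.v6.1, Cre07.g321800_4532.v6.1 rose with 3.07 (limma adjusted p 0.00245). Only v5.5 neighbours were read, and overlap of gene models was not tested.

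Nuclear gene models without a v5.5 locus passed the filter less often, and their shares of called genes differed little as deposited. Of 2225 such models 748 (33.6%) passed the expression filter, against 66.8% of the 15386 with a v5.5 locus. Among those tested 42.0% were raised and 3.74% lowered as deposited, against 41.0% and 4.78% of the genes with a locus. After centring 11.5% were raised and 9.63% lowered, against 7.88% and 12.4%.

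Transcripts under the prefixes CreCp and CreMt, which the annotation uses for the chloroplast and mitochondrial genomes, are mostly not polyadenylated and enter poly(A) libraries as carry-over. The 74 chloroplast genes summed to 69.5, 85.0 and 98.2 FPKM in replicates 1, 2 and 3 of high light and to 76.1, 762 and 115 FPKM in control replicates 1, 2 and 3. Among the vip1-1 libraries control replicate 2 thus stood apart, and 67 of the 74 genes had their highest vip1-1 value in it. The sums were uneven in wild type too, at 174, 561 and 272 FPKM in high light and 356, 77.5 and 101 FPKM in control replicates 1, 2 and 3. Of the 17 chloroplast and 3 mitochondrial genes that were tested none passed the threshold under either scaling (limma). Among all tested genes 45.7% passed it as deposited and 20.3% after centring. Without control replicate 2, only 15 chloroplast genes and 1 mitochondrial gene reached 1 FPKM in 3 libraries. Some were therefore tested only through that library, whose high values also enter their spread. The sums of all chloroplast and all mitochondrial genes were at most 0.0999% and 0.00177% of the FPKM total in any vip1-1 library. The part of this carry-over in the results that changed without control replicate 2 was not tested.

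Complete switches were rare and weak. Only 2 genes were listed at 0 in all 3 vip1-1 control libraries and had at least 1 FPKM in all 3 high light libraries, and 3 genes showed the reverse. Their values above 0 lay between 1.06 and 3.31 FPKM in vip1-1.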

How the data were processed

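The deposited table holds 1 FPKM value per gene and library. FPKM were made by the authors; the submitters' processing notes name HISAT2 and StringTie, while versions, genome build and filters are not given in the sources used here. The suffix of each identifier names the CC-4532 annotation, release 6.1. Columns were matched to samples by the library names in the labels, and all 12 were used.

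FPKM are not counts, so no count model was used. Among low values (up to 0.15 FPKM) the most common ratio between 2 vip1-1 libraries was shared by 1.72% to 3.46% of genes. Whole reads were therefore not recoverable, and depth is unknown. On the log2(FPKM + 1) scale, genes with at least 1 FPKM in at least 3 of the 6 vip1-1 columns were fitted with limma 3.58.1 in R 4.3.3, with 4 group means over all 12 libraries, 8 residual degrees of freedom and empirical Bayes moderation with a variance trend. Tests were two-sided, with Benjamini-Hochberg adjustment over the tested genes and a threshold of 0.05. The fit was also run on simulated data with the same spread in all 4 groups. Its behaviour under the larger spread seen in high light was therefore not tested.

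Members, gene lists and tests were chosen with earlier results of these data known. Named genes follow 1 rule: the 10 of largest rise and fall under the conditions given in the text, and the 6 of largest positive and negative interaction among genes called for both tests without overlap or a 0 in vip1-1. The edge genes of the filter, the genes next to named ones and the 5 on-or-off genes are given besides. Pathway lists written by gene symbol could not be matched, since the RefSeq table of assembly v5.5 holds 0 symbols other than locus tags, although 15386 of 17693 identifiers matched a tag. Python 3.11.15 with matplotlib 3.10.9 made the figures.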

Additional observations from a re-analysis of the deposited data

Results flagged for a closer look

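The light effect differed between vip1-1 and wild type, by the interaction term of limma, in 969 genes. Of the named genes 13 were among them, but the 6 of largest positive and 6 of largest negative interaction were named for passing this threshold. Of the 10 raised and 10 lowered genes named for their light effect, 0 and 2 passed it, against 8.77% of all tested genes. The positive interactions were 3.51 for Cre12.g546600_4532.v6.1, 3.45 for Cre02.g088551_4532.v6.1, 3.30 for Cre13.g570851_4532.v6.1, 3.16 for Cre08.g365900_4532.v6.1, 2.78 for Cre12.g492650_4532.v6.1, 2.57 for Cre04.g223300_4532.v6.1 and 1.34 for Cre16.g661750_4532.v6.1. The negative ones were -2.70 for Cre05.g234661_4532.v6.1, -2.90 for Cre02.g093750_4532.v6.1, -3.18 for Cre01.g053000_4532.v6.1, -3.20 for Cre01.g032650_4532.v6.1, -4.09 for Cre06.g282800_4532.v6.1 and -4.45 for Cre17.g802031_4532.v6.1. The interaction of Cre12.g546600_4532.v6.1 (limma adjusted p 0.0319) did not pass the threshold in 11 of 28 alternatives, that of Cre16.g661750_4532.v6.1 (0.0258) in 9 and that of Cre01.g053000_4532.v6.1 (0.0227) in 9, with adjusted p up to 0.0902, 0.106 and 0.107. Each of these 3 was lost when single libraries of either strain were left out. That of Cre06.g282800_4532.v6.1 was lost in 1, with replicate 2 of both vip1-1 groups left out (0.0518).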

How the results depend on the processing

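As deposited, 5055 genes were called, 4535 raised and 520 lowered, and the interaction was called in 969. These 3 counts of the light effect were 2248, 896 and 1352 after median centring, 2145, 1188 and 957 under quantile normalization, 5891, 5511 and 380 with every library scaled to the same total (TPM), and 2744, 1592 and 1152 when scaled on the sum of all but the 1000 genes of highest level. Only genes with a mean FPKM of at least 5 gave 2731 called and 2342 raised. As deposited, a fit of the 6 vip1-1 libraries alone gave 4339 called, 3926 raised and 413 lowered. In that fit 30 of the 31 light effects of named genes passed the threshold. An adjusted p under 0.01 left 2515, 2372 and 143, and 221 interactions, and a change of at least 2-fold left 1219, 952 and 267, and 554 interactions. Leaving out single libraries gave 3108 to 5739 called, 2909 to 5100 raised, 199 to 811 lowered and 466 to 1735 interactions. After centring it gave 727 to 2820 called, 315 to 1119 raised and 412 to 1701 lowered. Alternatives added after seeing the data were these centred counts without single libraries, the replicate block with median centring given below, the centred counts from a fit of the 6 vip1-1 libraries alone (1253, 440 and 813), and leaving out replicate 2 of both vip1-1 groups, which gave 2585 called, 2106 raised and 213 interactions as deposited and 1144, 359 and 785 after centring. Where libraries were left out fewer samples remained; the cause of the other shifts was not tested. The difference in the share of the 100 most abundant genes was -5.77 to -3.62 percentage points without single libraries, and -4.56 for the 1000 most abundant.

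With a replicate block, 4643 genes were called, 4139 raised and 504 lowered, with 696 interactions, and 1875, 726 and 1149 with median centring. The deviations of same-numbered high light and control libraries of vip1-1 correlated at -0.12, 0.51 and 0.18 for replicates 1, 2 and 3. High light replicates 2 and 3 of vip1-1 correlated best with the control of their own number, and replicate 1 with control replicate 3 (0.30). Same-numbered libraries of wild type correlated at -0.14, -0.19 and -0.18 for replicates 1, 2 and 3. These values cannot settle whether the numbers pair the samples. The main fit did not pair them, and the block joined same-numbered libraries of both strains. No named gene reversed its direction under any of these alternatives. For the light effect in vip1-1 this was largely fixed in advance, since named genes were chosen as called and without overlap there.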
